A study of Mus musculus with 458 samples.

Results

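The donor-derived haematopoietic stem cells (HSCs) of this study were split, mouse by mouse, and the classes were chosen by each cell's own level of Vwf, the gene for von Willebrand factor. A cell was called Vwf-expressing at 1 RPKM or more (reads per kilobase per M, or mega, reads of the cell) and Vwf-low below that. All sequenced cells entered, which gave 144 Vwf-expressing cells and 314 Vwf-low cells, so 31.4% of all cells were Vwf-expressing. Both classes were compared inside each of the 6 mice, so that mouse and experiment were the same on both sides, and the 6 within-mouse differences were then combined. The smallest class in any mouse held 9 cells, and no mouse was left out of the main comparison.

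The cells were index sorted from bone marrow of recipients that had been given a single Vwf+ HSC each, and each was sequenced as a library of its own by a full-length SMARTer protocol. Sorting took LSK CD150+CD48-CD45.2+ cells, an HSC gate in which CD45.2 marks the donor, on a C57BL/6 background. All cells of a mouse therefore descend from 1 transplanted cell, and each mouse is 1 clone. Recipients had been sorted into types by the blood lineages they showed over 16 weeks.

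The PEM recipients (mice 1 and 2) gave 93 and 25 cells, with lineages restricted to P, E and M in the submitters' abbreviation. The PLT recipients (mice 1 and 2) gave 93 and 84 cells, and correspond to the P-restricted type. The MUL recipients (mice 1 and 2) gave 78 and 85 cells and were multilineage. Both MUL mice came from 1 experiment and each of the other 4 from its own. Genotypes beyond the strain, and the ages of the animals, were not given in the labels. Since every recipient was founded by a cell sorted as Vwf+, the Vwf-low cells here are also progeny of a Vwf+ cell.

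Von Willebrand factor is a large secreted glycoprotein made by endothelial cells and by megakaryocytes, which store it in Weibel-Palade bodies and in platelet alpha granules. It tethers platelets to an injured vessel wall through the glycoprotein Ib-IX-V complex and binds the activated integrin alpha-IIb beta-3. In mouse bone marrow, Vwf is also transcribed in a fraction of HSCs, and that fraction is known for platelet-biased output and for megakaryocyte genes transcribed at low levels.

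Vwf lies on chromosome 6 at 125546774 to 125686679, plus strand (mm10, GENCODE M21). Since Vwf chose the cells, its values are a description without a test. The count of Vwf-expressing cells was 51 of 93 in PEM mouse 1 (54.8%, exact Clopper-Pearson 95% interval 44.2 to 65.2), and 10 of 25 in PEM mouse 2 (40.0%, 21.1 to 61.3). It was 24 of 93 in PLT mouse 1 (25.8%, 17.3 to 35.9) and 37 of 84 in PLT mouse 2 (44.0%, 33.2 to 55.3). It was 9 of 78 in MUL mouse 1 (11.5%, 5.41 to 20.8) and 13 of 85 in MUL mouse 2 (15.3%, 8.40 to 24.7). Both MUL mice thus had smaller shares than the other 4, and these intervals cover counting error within a mouse only. The titles of the cells carry P1 or P2, and every mouse had Vwf-expressing cells under both.

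The threshold cut through a near-empty range. Vwf was listed at 0 in 182 cells, lay above 0 and below 1 RPKM in 132, between 1 and 10 RPKM in 23, and at 10 RPKM or more in 121. Only 2 cells lay between 0.5 and 2 RPKM. The cells just inside the threshold had 1.67, 2.46 and 2.75 RPKM, and those just outside had 0.994, 0.306 and 0.277 RPKM. The median Vwf level of the Vwf-expressing cells was 37.9 and 21.0 RPKM in PEM mice 1 and 2, 53.6 and 22.3 RPKM in PLT mice 1 and 2, and 16.1 and 58.3 RPKM in MUL mice 1 and 2. The highest single cell, in PLT mouse 1, had 270.5 RPKM. The level in expressing cells thus did not order the mice as the share of expressing cells did, and MUL mouse 2 had the highest median.

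**Figure D1:**
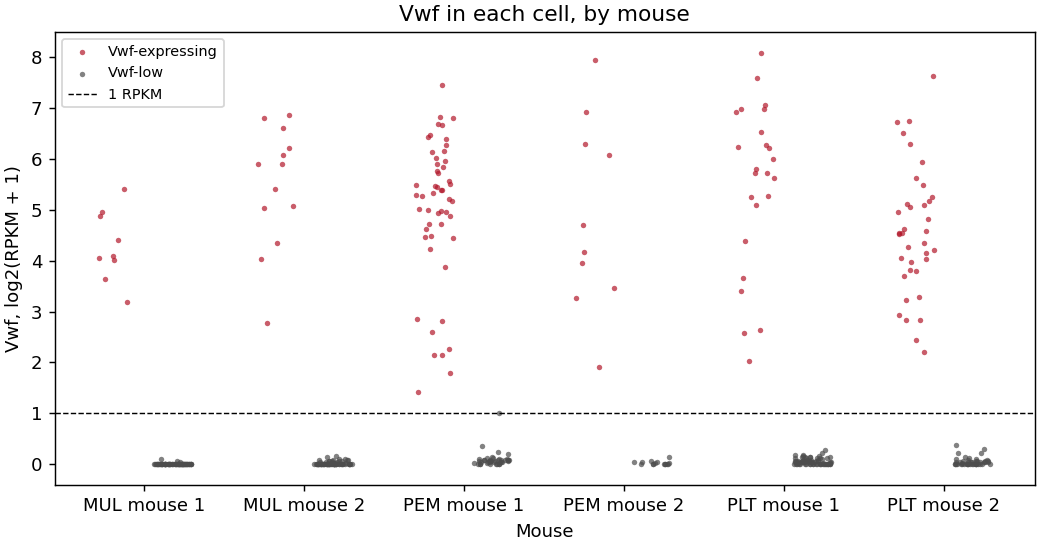
Vwf level of each cell as log2(RPKM + 1), by mouse, with Vwf-expressing cells (red) left of Vwf-low cells (grey) and the 1 RPKM threshold dashed. In every mouse the classes are separated by a gap, and the single grey point at the line is the PEM mouse 1 cell at 0.994 RPKM.

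The genes of the sorting gate were checked in both classes. Kit was at 1 RPKM or more in 98 of 144 Vwf-expressing and 159 of 314 Vwf-low cells, Ly6a (Sca-1) in 81 and 187 cells, and Slamf1 (CD150) in 45 and 43 cells. These counts pool mice with different shares of Vwf-expressing cells. For Slamf1, 29 of the 45 cells were of PEM mouse 1, and the share was lower in Vwf-expressing cells of PLT mouse 1 (3 of 24 against 17 of 69) and MUL mouse 2 (0 of 13 against 4 of 72). Cd48, against which the cells were gated, reached 1 RPKM in 1 Vwf-expressing and 3 Vwf-low cells. Mpo, the myeloperoxidase of granulocyte precursors, and Dntt, the terminal transferase of lymphoid precursors, were listed at 0 in every cell of both classes.

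Sdpr and Tbxas1 were the platelet genes among the 10 higher genes with the smallest p, in places 9 and 10, and were picked out for that function. Their promoters are shown so that they can be read for the motifs of megakaryocyte transcription factors. Sdpr, now named Cavin2, encodes a phosphatidylserine-binding coat protein of caveolae first purified from platelets. Tbxas1 encodes thromboxane A synthase, which makes the platelet agonist thromboxane A2. The windows run from 250 bases before to 50 bases after the RefSeq start (GRCm38.p6, the genome of mm10), 5′ to 3′ on the plus strand. They are chr1:51288876-51289175 for Sdpr and chr6:38918736-38919035 for Tbxas1, and the Tbxas1 start lies inside the longer GENCODE span of 38875404 to 39084585. Capitals mark motif matches on either strand.
Sdpr: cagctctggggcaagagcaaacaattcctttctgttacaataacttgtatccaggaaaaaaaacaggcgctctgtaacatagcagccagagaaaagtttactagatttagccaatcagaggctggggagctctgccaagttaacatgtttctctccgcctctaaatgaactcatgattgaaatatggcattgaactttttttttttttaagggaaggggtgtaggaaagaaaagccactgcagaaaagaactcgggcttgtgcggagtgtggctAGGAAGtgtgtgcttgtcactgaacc
Tbxas1: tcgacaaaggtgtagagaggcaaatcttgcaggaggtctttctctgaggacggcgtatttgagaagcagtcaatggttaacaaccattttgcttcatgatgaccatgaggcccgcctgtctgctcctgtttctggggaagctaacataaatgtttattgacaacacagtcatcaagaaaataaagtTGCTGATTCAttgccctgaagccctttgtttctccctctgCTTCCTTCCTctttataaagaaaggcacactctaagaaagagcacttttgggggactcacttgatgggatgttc

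Both strands were searched for the NF-E2 motif, the GATA motif AGATAA and the ETS motif AGGAAG. The NF-E2 motif is the first run of capitals in the Tbxas1 window, of which base 7 may be any letter. The Tbxas1 window held this 1 NF-E2 match, at base 187, and 2 overlapping ETS matches on the reverse strand, at bases 227 and 231. The Sdpr window held 1 ETS match, at base 275, and no NF-E2 match. Neither window held AGATAA on either strand. Of all 32851 RefSeq promoter windows of 300 bases, 0.423% held the NF-E2 motif, 11.2% the GATA motif and 35.4% the ETS motif. A match describes letters in the window and is no evidence of binding.

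Vwf-expressing cells had more detected genes than Vwf-low cells of the same mouse, in all 6 mice. The class medians were 3210 against 3031 detected genes in PEM mouse 1, 3536 against 2554 in PEM mouse 2, 2134 against 1856 in PLT mouse 1, 2962 against 2420 in PLT mouse 2, 2908 against 2153 in MUL mouse 1, and 2647 against 2541.5 in MUL mouse 2. The mean difference was 474 ± 347 genes (SD, n = 6 mice), with p = 0.0312 by an exact two-sided sign-flip permutation test, the smallest p that 6 mice allow. Over the 3 cell measures examined the adjusted p was 0.0938, which does not pass 0.05. With class means in place of medians the difference was 534 genes and the adjusted p was 0.0469 by the same exact test, so the call depends on that choice.

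The same cells had fewer mapped reads in 5 of 6 mice. The class medians were 5.21 M against 5.54 M reads in PEM mouse 1, 3.46 against 7.69 in PEM mouse 2, 4.51 against 4.87 in PLT mouse 1, 4.87 against 4.86 in PLT mouse 2, 2.90 against 4.65 in MUL mouse 1, and 4.68 against 5.11 in MUL mouse 2. The mean difference was -1.18 ± 1.61 M reads (SD, n = 6; exact permutation p = 0.0625, adjusted p = 0.0938), and -0.927 M reads by class means (adjusted exact permutation p = 0.0469). PEM mouse 2 contributed the largest gap, and without it the mean difference was -0.574 M reads. The percent of mitochondrial reads was lower in 4 of 6 mice, by a mean of -0.651 ± 0.660 percentage points (SD, n = 6; exact permutation p = 0.125, adjusted p = 0.125). The larger number of detected genes therefore stood beside fewer mapped reads, not more.

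The share of Vwf-expressing cells also moved with the number of detected genes inside a mouse. In cells above the mouse's median of detected genes against cells at or below it, it was 65.2% against 44.7% in PEM mouse 1, 66.7% against 15.4% in PEM mouse 2, 32.6% against 19.1% in PLT mouse 1, 66.7% against 21.4% in PLT mouse 2, 23.1% against 0% in MUL mouse 1 (0 of 39 cells, exact upper 95% bound 9.03%), and 19.0% against 11.6% in MUL mouse 2. All 9 Vwf-expressing cells of MUL mouse 1 were above its median. Whether Vwf was missed in cells with few detected genes was not tested.

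**Figure D2:**
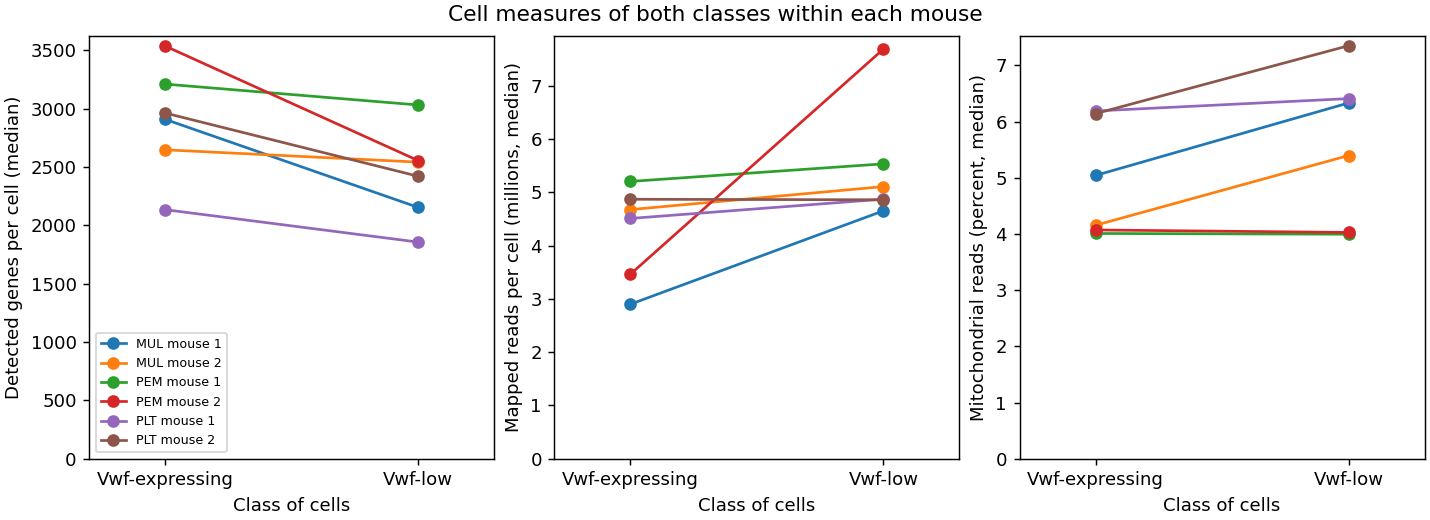
Median detected genes, mapped reads (M) and percent mitochondrial reads of Vwf-expressing cells (left) and Vwf-low cells (right), with a line per mouse. Detected genes were higher in Vwf-expressing cells in 6 of 6 mice and mapped reads were lower in 5 of 6, with PEM mouse 2 showing the steepest lines in both.

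Across 8969 tested genes, no gene differed between the classes at an adjusted p under 0.05 (limma, Benjamini-Hochberg, 0% called), and the lowest adjusted p was 0.229. The scale was the class mean of log2(RPKM + 1) over cells, which understates the change of low genes, and a difference on it need not match the ratio of mean RPKM. At an unadjusted p under 0.05, 1401 genes were higher in Vwf-expressing cells (15.6%) and 63 were lower (0.702%). In every mouse 683 genes were higher (7.62%) and 70 were lower (0.78%). On average 7026 genes were higher (78.3%), and the median gene differed by 0.24 on the log2 scale. The shift was thus spread over most genes, in cells that also had more detected genes.

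With the log2 of each cell's detected genes as a covariate, fitted over the cells of each mouse, the surplus of higher genes was no longer there. The median gene then differed by 0.0080, 234 genes were higher at an unadjusted p under 0.05 (2.61%) and 211 were lower (2.35%). In every mouse 133 genes were higher (1.48%) and 157 were lower (1.75%). The lowest adjusted p was 0.920 (limma, Benjamini-Hochberg). When the log2 of the class mean RPKM was used in place of the mean of log2 values, 194 genes were higher (2.16%) and 379 lower (4.23%) at an unadjusted p under 0.05. The median difference was then -0.11, so the direction of the general shift depended on the scale. The log2 of a mean depends on the number of cells averaged, and the classes differed in size. Differences of named genes given below are therefore set beside their values with detected genes as a covariate.

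**Figure D3:**
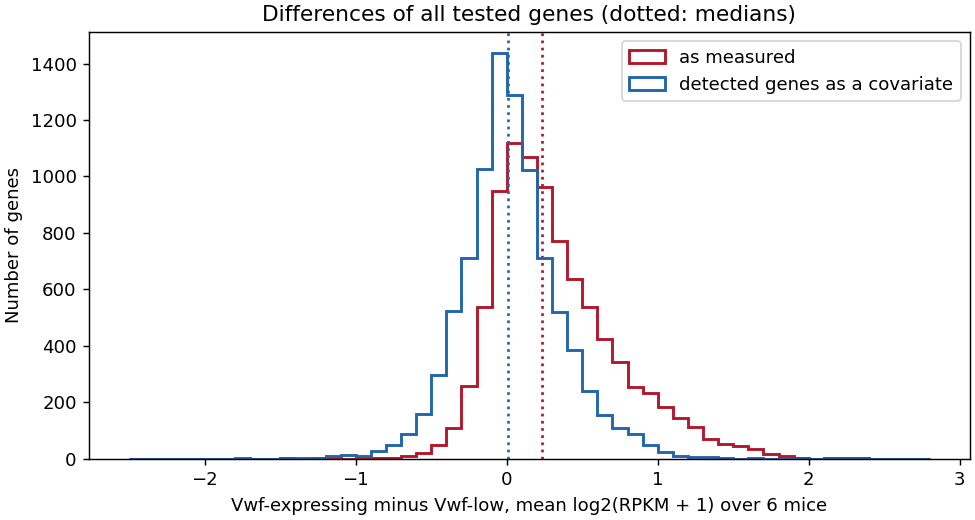
Number of tested genes by their Vwf-expressing minus Vwf-low difference in mean log2(RPKM + 1), as measured (red) and with detected genes as a covariate (blue). The median of the red distribution lies at 0.24 and that of the blue at 0.0080.

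Sdpr had the largest difference of the 10 leading higher genes. Its mean level in Vwf-expressing cells against Vwf-low cells was 71.1 against 14.1 RPKM in PEM mouse 1, 188.3 against 5.30 RPKM in PEM mouse 2, 101.7 against 62.9 in PLT mouse 1, 107.0 against 65.4 in PLT mouse 2, 123.8 against 6.07 in MUL mouse 1, and 33.9 against 9.31 in MUL mouse 2. The Vwf-expressing class was higher in all 6 mice, although the highest single Vwf-low cell, at 1269 RPKM, exceeded every Vwf-expressing cell. Sdpr reached 1 RPKM in 23 of 51 against 8 of 42 cells, 7 of 10 against 3 of 15, 14 of 24 against 17 of 69, 25 of 37 against 23 of 47, 6 of 9 against 4 of 69, and 3 of 13 against 6 of 72 cells, in the same order of mice. The difference was 2.36 ± 0.49 on the log2 scale (SE, 6 mice; limma adjusted p = 0.229). It was 1.69 with detected genes as a covariate, where 5 of 6 mice remained above 0.

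Tbxas1 was higher in all 6 mice. Its means were 186.7 against 142.2 RPKM in PEM mouse 1, 162.3 against 33.8 RPKM in PEM mouse 2, 183.6 against 120.5 in PLT mouse 1, 94.9 against 54.0 in PLT mouse 2, 127.0 against 162.5 in MUL mouse 1, and 431.3 against 307.9 in MUL mouse 2. In MUL mouse 1 the mean RPKM was lower in the Vwf-expressing class while the mean log2 value was higher, with 8 of 9 against 37 of 69 cells at 1 RPKM or more. The difference was 1.61 ± 0.34 on the log2 scale (SE, 6 mice; limma adjusted p = 0.229), and it was 1.10 and above 0 in 6 of 6 mice with detected genes as a covariate.

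The other leading higher genes have general roles in cells. Cct3 encodes a subunit of the chaperonin TRiC, which folds actin and tubulin. Its means were 307.5 against 219.2 RPKM in PEM mouse 1, 292.9 against 246.9 RPKM in PEM mouse 2, 297.9 against 159.6 in PLT mouse 1, 348.8 against 260.8 in PLT mouse 2, 327.3 against 241.7 in MUL mouse 1, and 301.3 against 179.2 in MUL mouse 2. The Vwf-expressing class was higher in every mouse on both scales. The 6 class means ran from 292.9 to 348.8 RPKM in Vwf-expressing cells and from 159.6 to 260.8 RPKM in Vwf-low cells. Cct3 was named for its small p, so this separation is no further support. Genes separated in this way were not counted over all tested genes. The log2 difference was 2.21 ± 0.35 (SE, 6 mice; limma adjusted p = 0.229) and was 1.16 with the covariate.

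Nelfa encodes a subunit of the negative elongation factor, which holds RNA polymerase II near promoters. Its means were 43.2 against 16.5 RPKM in PEM mouse 1, 46.4 against 8.35 RPKM in PEM mouse 2, 31.4 against 0.0280 in PLT mouse 1, 10.96 against 8.03 in PLT mouse 2, 69.5 against 10.1 in MUL mouse 1, and 96.2 against 18.5 in MUL mouse 2. The Vwf-expressing class was higher in all 6 mice, and in PLT mouse 1 none of the 69 Vwf-low cells reached 1 RPKM (exact upper 95% bound 5.21%). The difference of 1.45 ± 0.29 on the log2 scale (SE; limma adjusted p = 0.229) changed little with the covariate, to 1.22, and was above 0 in 6 of 6 mice.

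Hspa9, the mitochondrial HSP70 chaperone, differed by 1.89 on the log2 scale and by 0.72 with the covariate. Tsnax, the partner of the RNA-binding protein translin, differed by 1.70 and 1.07. Ssrp1, a subunit of the histone chaperone FACT, differed by 1.72 and 0.93. Nop56, a core protein of box C/D snoRNPs in ribosome assembly, differed by 1.84 and 0.42. Drg1, a ribosome-associated GTPase, differed by 1.83 and 0.78, and Copb2, a subunit of the COPI coat of Golgi vesicles, by 1.68 and 1.18. All 6 were higher in every mouse before the covariate, each with an adjusted p of 0.229 (limma), and Nop56 lost the largest part of its difference with it.

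With detected genes as a covariate, the 5 higher genes with the smallest p were Psmg3, Nelfa, Tbc1d2b, Ube2e2 and Ostm1. Psmg3, a proteasome assembly chaperone, averaged 53.7 against 28.0 RPKM in PEM mouse 1, 48.6 against 0.108 RPKM in PEM mouse 2, 13.2 against 12.4 in PLT mouse 1, 52.0 against 8.29 in PLT mouse 2, 28.9 against 2.55 in MUL mouse 1, and 33.5 against 10.2 in MUL mouse 2. It was higher in all 6 mice, by 1.35 on the log2 scale and by 1.09 with the covariate. Tbc1d2b, a GTPase-activating protein of the TBC family, differed by 1.11 and by 1.04 with the covariate. Ube2e2, a ubiquitin-conjugating enzyme, differed by 0.92 and 0.81, and Ostm1, a subunit of the lysosomal chloride transporter ClC-7, by 1.08 and 0.97. Each was above 0 in 6 of 6 mice in both fits, with an adjusted p of 0.229 without and 0.920 with the covariate (limma).

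**Figure D4:**
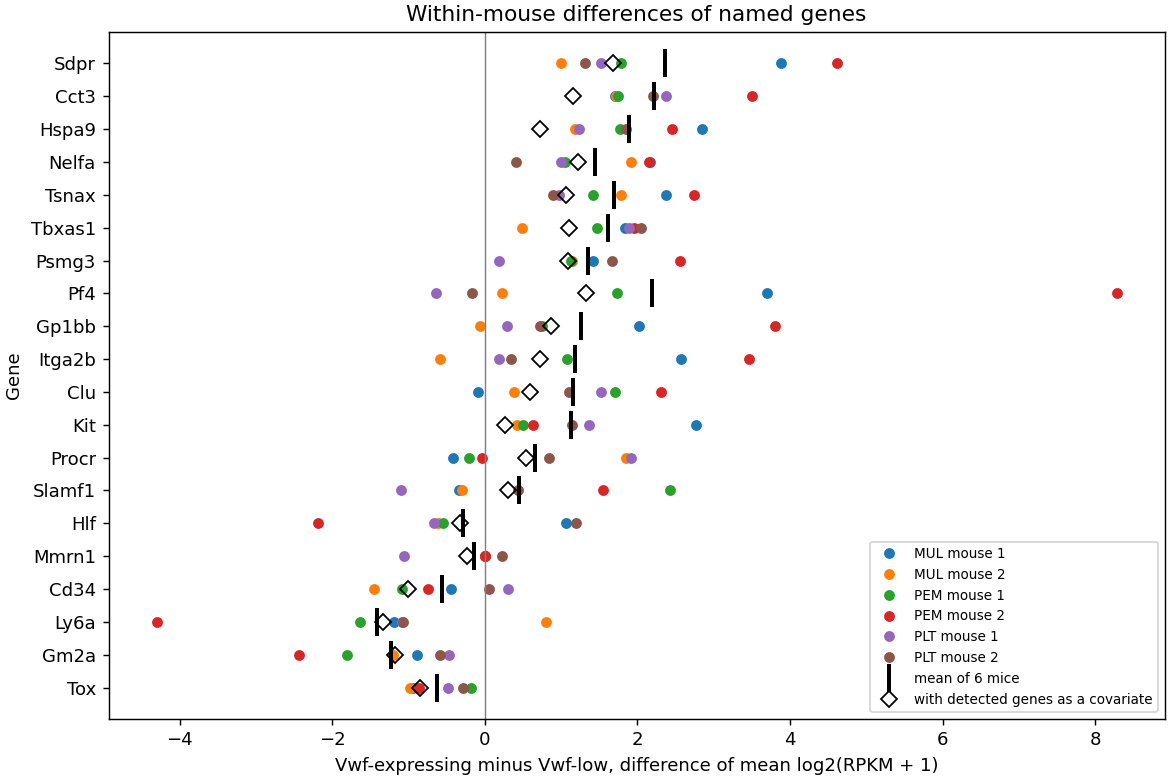
Vwf-expressing minus Vwf-low differences of mean log2(RPKM + 1) for 20 named genes, with a coloured point per mouse, the mean of 6 mice as a bar and the value with detected genes as a covariate as an open diamond. Sdpr, Cct3, Hspa9, Nelfa, Tsnax, Tbxas1, Psmg3 and Kit lie above 0 in all 6 mice, Tox and Gm2a lie below 0 in all 6, and Pf4 spreads from -0.64 in PLT mouse 1 to 8.28 in PEM mouse 2.

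Lists of genes by function were described next, by how many members lay on each side and by their median. Some of their members were named after their values were seen, because they had an unadjusted p under 0.05, and they are marked as picked. Each list's counts are to be read against all tested genes, of which 78.3% were higher on average and 15.6% were higher at an unadjusted p under 0.05.

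Receptors for von Willebrand factor and related platelet adhesion receptors were the list closest to the protein's function. Of its 13 genes in the table, 9 passed the filter on low values. Of these, 9 of 9 were higher on average, 5 had an unadjusted p under 0.05 and 0 passed the adjusted threshold. The filter took both classes together, so a rare gene could pass through the class where it was high. Pooled over mice, Gp1ba reached 1 RPKM in 13 of 144 Vwf-expressing and 10 of 314 Vwf-low cells. For Gp1bb these counts were 27 and 11, and for Gp5 they were 23 and 12. The counts of higher genes in this list may therefore be partly set by the filter. The median difference was 0.90, against 0.24 over all genes, and 0.15 with the covariate, against 0.0080. Among the subunits of glycoprotein Ib-IX-V, Gp1bb differed by 1.26 (limma adjusted p = 0.246), Gp5 by 1.04 (adjusted p = 0.246), Gp1ba by 0.48 (adjusted p = 0.257) and Gp9 by 0.52 (adjusted p = 0.389). With the covariate the values were 0.87 for Gp1bb, 0.79 for Gp5, 0.15 for Gp1ba and 0.032 for Gp9.

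Gp1bb, the beta chain of glycoprotein Ib, averaged 17.3 against 0.783 RPKM in PEM mouse 1, 112.8 against 0.0228 RPKM in PEM mouse 2, 7.503 against 4.55 in PLT mouse 1, 15.9 against 12.2 in PLT mouse 2, 35.7 against 1.73 in MUL mouse 1, and 0 against 0.359 in MUL mouse 2. The Vwf-expressing class was higher in 5 of 6 mice, and MUL mouse 2 had no Vwf-expressing cell with a value above 0. Itga2b, the integrin alpha-IIb chain, averaged 35.95 against 11.1 RPKM in PEM mouse 1, 61.8 against 0.789 RPKM in PEM mouse 2, 2.87 against 0.198 in PLT mouse 1, 2.38 against 2.92 in PLT mouse 2, 62.0 against 18.2 in MUL mouse 1, and 0.0878 against 7.74 in MUL mouse 2. On the log2 scale Itga2b was higher in 5 of 6 mice, by 1.18 ± 0.47 (SE; limma adjusted p = 0.277), and by 0.73 with the covariate. Its partner Itgb3, the beta-3 chain, differed by 0.098 and by -0.084 with the covariate. Itgb1, the beta-1 integrin chain and a picked gene, differed by 1.46 (adjusted p = 0.247) and 0.84.

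Platelet granule proteins were the next list, and Pf4 among them varied widely between mice. Of the 20 genes found, 9 were tested, 8 were higher, 3 had an unadjusted p under 0.05 and 0 passed. The median difference was 0.62, and 0.068 with the covariate. Pf4, the alpha granule chemokine platelet factor 4, averaged 650.7 against 137.2 RPKM in PEM mouse 1, 3440 against 9.97 RPKM in PEM mouse 2, 30.4 against 168.7 in PLT mouse 1, 652.0 against 617.1 in PLT mouse 2, 1147 against 47.1 in MUL mouse 1, and 27.2 against 17.9 in MUL mouse 2. On the log2 scale it was higher in 4 of 6 mice, and the mean of 2.19 ± 0.97 (SE; limma adjusted p = 0.302) was highest in PEM mouse 2 and MUL mouse 1. Without PEM mouse 2 the Pf4 difference was 0.97, and with the covariate over all 6 mice it was 1.33. Srgn, the granule proteoglycan serglycin and a picked gene, differed by 0.72 (adjusted p = 0.271) and by 0.068 with the covariate.

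Clu, which encodes the chaperone clusterin and is a marker of aged and platelet-biased HSCs, averaged 96.8 against 23.4 RPKM in PEM mouse 1, 60.0 against 13.5 RPKM in PEM mouse 2, 173.7 against 64.9 in PLT mouse 1, 118.8 against 83.7 in PLT mouse 2, 0.0721 against 10.9 in MUL mouse 1, and 13.7 against 7.14 in MUL mouse 2. It was higher in 5 of 6 mice, by 1.16 ± 0.33 on the log2 scale (SE; limma adjusted p = 0.238), and by 0.59 with the covariate. Selp, the adhesion receptor P-selectin stored beside von Willebrand factor, differed by 0.62 (adjusted p = 0.325) and was higher in 5 of 6 mice, but by 0.35 and in 3 of 6 with the covariate. Mmrn1, the alpha granule protein multimerin 1, was read almost only in the PLT mice, where it averaged 28.5 against 121.5 RPKM in mouse 1 and 72.8 against 93.6 RPKM in mouse 2. In the other 4 mice its class means were 0 or, in the Vwf-low cells of PEM mouse 2, 0.0017 RPKM. The mean log2 value of Mmrn1 was lower in Vwf-expressing cells of PLT mouse 1, by -1.07, but higher in those of PLT mouse 2. Over 6 mice its log2 difference was -0.14, and -0.24 with the covariate. Ppbp, another platelet chemokine, did not pass the filter on low values, and was at 1 RPKM or more in 3 of 51 against 1 of 42 cells in PEM mouse 1, in 2 of 10 against 0 of 15 in PEM mouse 2, in 0 of 24 against 1 of 69 in PLT mouse 1, in 8 of 37 against 3 of 47 in PLT mouse 2, and in no cell of the MUL mice.

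The machinery that loads and releases granules and Weibel-Palade bodies had 20 genes in the table and 14 tested. Of these 13 were higher, 3 had an unadjusted p under 0.05 and 0 passed, with a median of 0.58, and 0.17 with the covariate. The 3 genes, all picked, were Vamp3, a vesicle SNARE (difference 1.29, limma adjusted p = 0.241, 0.65 with the covariate), Ralb, a GTPase of exocytosis (1.06, adjusted p = 0.246, 0.83 with the covariate), and Stxbp3a, a syntaxin-binding protein (0.66, adjusted p = 0.292, 0.45 with the covariate). Vamp3 was higher in 6 of 6 mice, Stxbp3a in 5 and Ralb in 4.

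Megakaryocyte signalling and cytoskeleton genes numbered 25 in the table and 17 tested, of which 16 were higher, 8 had an unadjusted p under 0.05 and 0 passed. Their median was 0.56, and 0.34 with the covariate. Fermt3, the integrin activator kindlin-3 and a picked gene, differed by 1.74 (limma adjusted p = 0.229) and by 0.82 with the covariate. Slc14a1, a urea transporter and also picked, differed by 1.56 (adjusted p = 0.229) and by 0.96 with the covariate, and was higher in 6 of 6 mice.

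Transcription factors of megakaryocyte-erythroid cells and HSCs had 21 genes in the table and 20 tested. Of these 19 were higher (95%, against 78.3% of all genes), 7 had an unadjusted p under 0.05 (35%, against 15.6%) and 0 passed, with a median of 0.45, and 0.14 with the covariate. Gata1, the main factor of the megakaryocyte and erythroid lineages, averaged 28.3 against 6.93 RPKM in PEM mouse 1, 47.8 against 1.21 RPKM in PEM mouse 2, 0.395 against 5.56 in PLT mouse 1, 18.3 against 15.6 in PLT mouse 2, 18.7 against 9.19 in MUL mouse 1, and 0.721 against 4.95 in MUL mouse 2. It was higher in 5 of 6 mice on the log2 scale, by 0.91 (limma adjusted p = 0.292), and by 0.44 with the covariate. Nfe2, which drives platelet release, differed by 1.06 (adjusted p = 0.277) and 0.28 with the covariate, Fli1 by 0.88 and 0.68, Gata2 by 0.42 and 0.00058, and Zfpm1, the GATA cofactor FOG1, by 0.18 and 0.058.

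Lmo2 and Gfi1b were picked. Lmo2, a bridging protein of the SCL and GATA complexes, was at 1 RPKM or more in 49 of 51 against 36 of 42 cells of PEM mouse 1, 9 of 10 against 10 of 15 of PEM mouse 2, 22 of 24 against 54 of 69 of PLT mouse 1, 32 of 37 against 37 of 47 of PLT mouse 2, 9 of 9 against 50 of 69 of MUL mouse 1, and 13 of 13 against 68 of 72 of MUL mouse 2. Its log2 difference was 1.27 ± 0.30 (SE; limma adjusted p = 0.229), and 0.59 with the covariate. Gfi1b, a repressor needed for megakaryocyte and erythroid cells, was higher in 6 of 6 mice, by 1.05 (adjusted p = 0.246), but by 0.10 and in 2 of 6 with the covariate.

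HSC identity and self-renewal genes had 29 in the table and 28 tested, of which 19 were higher and 9 lower. Of these, 4 were higher and 1 lower at an unadjusted p under 0.05, and 0 passed. Their median of 0.33 lay near that of all genes, as did the 0.10 with the covariate. Kit, the receptor for stem cell factor, averaged 82.6 against 79.7 RPKM in PEM mouse 1, 62.6 against 85.1 RPKM in PEM mouse 2, 72.9 against 53.8 in PLT mouse 1, 39.7 against 22.7 in PLT mouse 2, 110.8 against 67.2 in MUL mouse 1, and 117.7 against 107.1 in MUL mouse 2. The mean RPKM was higher in 5 of 6 mice and the mean log2 value in 6 of 6, by 1.14 ± 0.38 (SE; limma adjusted p = 0.246). With the covariate the difference was 0.26. The picked genes beside Kit were Tek, the angiopoietin receptor Tie2 (difference 0.92, adjusted p = 0.246, 0.74 with the covariate), Esam, an adhesion molecule of HSCs and endothelium (0.59, adjusted p = 0.292, -0.0011 with the covariate), and Ctnnal1, alpha-catulin (0.51, adjusted p = 0.279, 0.26 with the covariate).

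Ly6a, which encodes the sorting marker Sca-1, ran the other way in 5 of 6 mice. Its means were 338.9 against 571.6 RPKM in PEM mouse 1, 74.7 against 616.8 RPKM in PEM mouse 2, 180.7 against 327.8 in PLT mouse 1, 131.5 against 238.7 in PLT mouse 2, 178.7 against 317.0 in MUL mouse 1, and 564.4 against 533.6 in MUL mouse 2. Only MUL mouse 2 had the higher mean in Vwf-expressing cells, and the ranges of the class means overlapped. The log2 difference was -1.42 ± 0.54 (SE; limma adjusted p = 0.271), and -1.33 with the covariate. It was -0.33 without cells that carried platelet markers, a comparison that drops PEM mouse 2, and -0.84 when only that mouse was left out.

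Cd34, a surface sialomucin low in long-term HSCs, averaged 19.5 against 57.9 RPKM in PEM mouse 1, 9.42 against 41.2 RPKM in PEM mouse 2, 5.72 against 0.00092 in PLT mouse 1, 8.86 against 17.05 in PLT mouse 2, 59.3 against 100.4 in MUL mouse 1, and 81.4 against 128.7 in MUL mouse 2. It was lower on the log2 scale in the 4 PEM and MUL mice, with a mean of -0.56 (limma adjusted p = 0.336), and -1.002 with the covariate. Procr, the protein C receptor EPCR, differed by 0.66, and 0.54 with the covariate, and was higher in 3 of 6 mice. Slamf1, which encodes the sorting marker CD150, differed by 0.45, and 0.30 with the covariate, with 92.0 against 34.1 RPKM in PEM mouse 1 and 34.7 against 93.4 RPKM in PLT mouse 1. The HSC regulators Hlf and Mecom differed by -0.29 and 0.087, and by -0.32 and -0.14 with the covariate, and each was higher in some mice and lower in others.

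Genes associated with HSC ageing had 30 in the table and 24 tested, of which 20 were higher (83.3%), 5 had an unadjusted p under 0.05 (20.8%) and 0 passed. Both shares were near those of all genes. Their median was 0.29, and 0.23 with the covariate. Aldh1a1, a retinaldehyde dehydrogenase, differed by 0.67, and by 0.11 with the covariate. Plscr2, a phospholipid scramblase, differed by -0.27, and by -0.69 with the covariate. Those 5 were Sdpr and Clu, given above, and the picked genes Nupr1, a stress-induced chromatin protein (difference 1.37, limma adjusted p = 0.246), Enpp5, a transmembrane phosphodiesterase (1.33, adjusted p = 0.246), and Ehd3, an endocytic recycling ATPase (0.94, adjusted p = 0.264). With the covariate Nupr1 differed by 0.46, Enpp5 by 0.76 and Ehd3 by 0.72.

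Cell cycle lists had smaller medians once detected genes were a covariate. Of the S phase genes 34 of 34 were tested and all 34 were higher on average (78.3% of all genes), 13 at an unadjusted p under 0.05 (38.2%, against 15.6% of all genes) and 0 past the adjusted threshold, with a median of 0.74 that was 0.14 with the covariate. Of 36 G2-M genes 35 were tested and 32 were higher, 4 at an unadjusted p under 0.05 and 0 called, with medians of 0.38 and -0.18. Mcm7, a picked subunit of the replicative helicase, differed by 1.502 and by 0.36 with the covariate, and its largest value was that of PEM mouse 2. Mki67, the proliferation marker Ki-67, differed by 0.66 (limma adjusted p = 0.330) and by 0.037 with the covariate. Of 19 quiescence and cell cycle inhibitor genes 15 were tested, 8 were higher, and 2 in each direction had an unadjusted p under 0.05, with medians of 0.17 and 0.0076. The 4, all picked, were Tsc22d3, the glucocorticoid-induced leucine zipper protein (1.11), and Ndn, the growth suppressor necdin (0.58), each higher in 6 of 6 mice, and Cdkn2c, the inhibitor p18 (-0.53), and Ccng2, cyclin G2 (-0.43), each lower in 5 of 6. With the covariate they differed by 0.41, 0.44, -0.56 and -0.72 in that order, and none was called (limma adjusted p of 0.238, 0.247, 0.277 and 0.271). Cdkn1c, the cyclin-dependent kinase inhibitor p57, differed by 0.29, and by 0.26 with the covariate.

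The same held for metabolic, translation and antigen presentation lists. Of 83 oxidative phosphorylation genes 77 were tested, 75 were higher, 27 at an unadjusted p under 0.05 and 0 called, with a median of 0.82, and 0.10 with the covariate. Of 84 ribosomal protein genes 80 were tested, 72 were higher (90.0%), 10 at an unadjusted p under 0.05 (12.5%, below the 15.6% of all genes) and 0 called, with medians of 0.32 and -0.050. Of 17 genes of MHC and antigen presentation 15 were tested, 12 were higher, 5 at an unadjusted p under 0.05 and 0 called, with medians of 0.49 and 0.14. In each of the 3 lists the value with the covariate lay closer to 0 than the value as measured.

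Lists of other lineages and of stress had medians below the 0.24 of all genes. Of 20 lymphoid priming genes 7 were tested, 4 were higher and 0 had an unadjusted p under 0.05, with medians of 0.011 and -0.14 with the covariate. Of 20 myeloid priming genes 6 were tested, 1 was higher, at an unadjusted p under 0.05, and 5 were lower, with medians of -0.15 and -0.22. Of 19 erythroid genes 10 were tested, 7 were higher and 1 had an unadjusted p under 0.05, with medians of 0.15 and 0.020. Of 19 immediate early and dissociation stress genes 12 were tested, 8 were higher and 0 had an unadjusted p under 0.05, with medians of 0.11 and 0.035. Of 23 interferon response genes 20 were tested, 11 were higher, 2 were higher and 1 lower at an unadjusted p under 0.05, with medians of 0.037 and -0.22. None of these genes was called. Picked genes behind those counts were Calr, the chaperone calreticulin (1.07), and the interferon-induced Usp18 (0.74), Bst2 (0.81) and Rtp4 (-0.90), with limma adjusted p of 0.294, 0.277, 0.280 and 0.279. With the covariate Calr differed by 0.25, Usp18 by 0.63, Bst2 by 0.31 and Rtp4 by -0.72. Flt3, a receptor of multipotent progenitors that HSCs lack, did not pass the filter. It reached 1 RPKM in 1 of 144 Vwf-expressing cells, against 10 of 314 Vwf-low cells. The Flt3 counts pool mice with different shares of Vwf-expressing cells, so they are no within-mouse comparison.

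**Figure D5:**
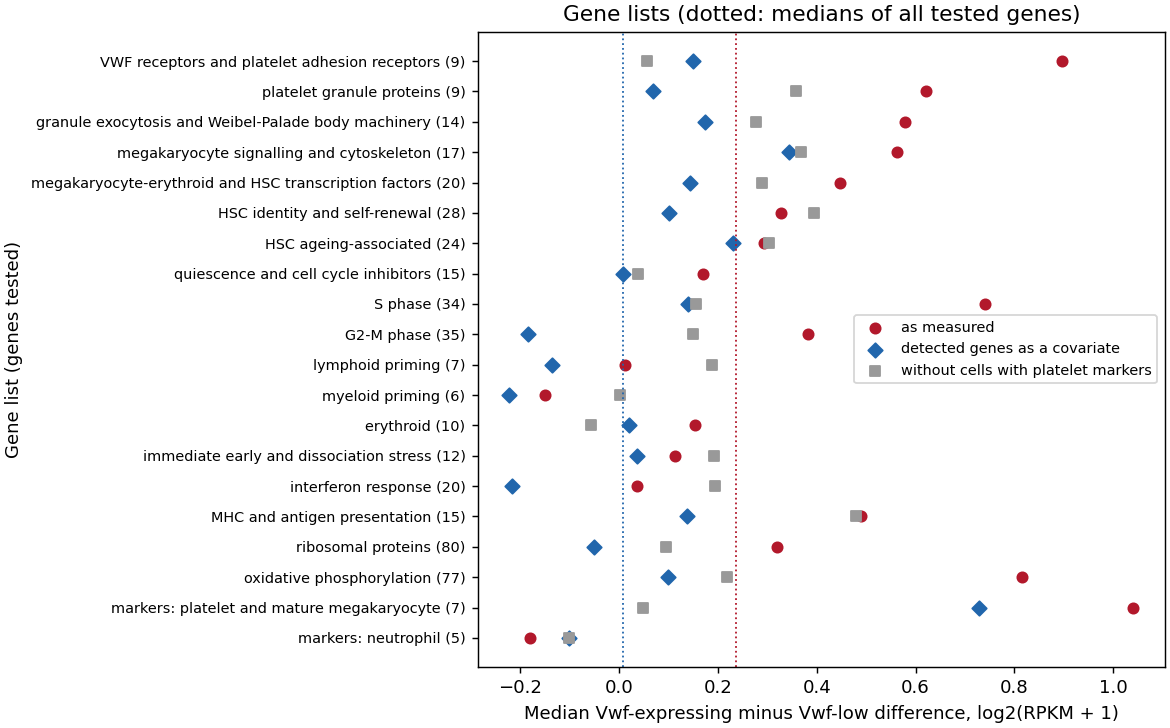
Median Vwf-expressing minus Vwf-low difference of each gene list with at least 5 tested genes, as measured (red circles), with detected genes as a covariate (blue diamonds) and without cells that carried platelet markers (grey squares). Dotted lines mark the medians of all tested genes at 0.24 and 0.0080, and the platelet and mature megakaryocyte markers have the highest medians as measured (1.04) and with the covariate (0.73).

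Cells with several platelet markers were more frequent among Vwf-expressing cells in every mouse. A cell was counted when at least 3 of 12 platelet and mature megakaryocyte markers were at 1 RPKM or more. Vwf-expressing cells also had more detected genes in 6 of 6 mice, and whether that raised their count was not tested. Such cells made up 41 of 144 Vwf-expressing cells and 17 of 314 Vwf-low cells. By mouse they were 15 of 51 against 1 of 42 in PEM mouse 1, 7 of 10 against 0 of 15 in PEM mouse 2, 2 of 24 against 2 of 69 in PLT mouse 1, 12 of 37 against 8 of 47 in PLT mouse 2, 3 of 9 against 3 of 69 in MUL mouse 1, and 2 of 13 against 3 of 72 in MUL mouse 2. The summed mean level of the 12 markers ran from 75.7 to 3748 RPKM in Vwf-expressing cells and from 68.7 to 705 RPKM in Vwf-low cells, was higher in 5 of 6 mice, and included Gp6 at 0 throughout the Vwf-expressing cells. Of 7 tested markers 7 were higher (78.3% of all genes), 5 at an unadjusted p under 0.05 (71.4%, against 15.6% of all genes) and 0 called. With detected genes as a covariate 7 were higher, 1 at an unadjusted p under 0.05. Gp1ba, Gp1bb and Gp5 are among these markers, so the limit of the filter given for the receptor list holds here too.

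Leaving out the marker-carrying cells dropped PEM mouse 2, which then had fewer than 5 Vwf-expressing cells, and left 100 Vwf-expressing and 282 Vwf-low cells in 5 mice. The median of the platelet markers was then 0.048, that of all genes was 0.12, and 548 genes were higher at an unadjusted p under 0.05. The marker rule uses Pf4, Gp1bb, Gp5, Gp1ba, Gp9 and Itga2b itself, so their differences are bound to shrink, and they were -0.16, 0.048, 0.16, -0.078, -0.33 and 0.20 in that order. Of 50 named genes outside the rule that were higher with all cells, 48 remained above 0 and 40 had a smaller difference. Itgb3 (-0.085) and Gata1 (-0.093) were below 0. Many of the 50 were named for a small p in these same cells, so these counts are no further support. The smaller differences are also not separated from the loss of PEM mouse 2, and the share over all tested genes was not counted. Sdpr differed by 1.16, Tbxas1 by 1.45, Nelfa by 1.20, Cct3 by 1.55 and Lmo2 by 1.23, while Slc14a1 differed by 0.44, Mcm7 by 0.39 and Fermt3 by 0.70, and none was called. Whether the marker-carrying cells are HSCs or later cells in the gate was not tested.

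Markers of other mature cells were counted in the same way. Cells with at least 3 such markers of 1 type at 1 RPKM or more were 9 of 144 Vwf-expressing and 31 of 314 Vwf-low cells. By mouse they were 2 of 51 against 1 of 42 in PEM mouse 1 and 2 of 10 against 5 of 15 in PEM mouse 2. They were 2 of 24 against 11 of 69 in PLT mouse 1 and 0 of 37 against 4 of 47 in PLT mouse 2. In MUL mouse 1 they were 1 of 9 against 3 of 69, and in MUL mouse 2, 2 of 13 against 7 of 72. The share was thus higher in Vwf-expressing cells of PEM mouse 1 and both MUL mice. Summed neutrophil markers ran from 313.7 to 581.8 RPKM against 522.6 to 26881 RPKM and were lower in Vwf-expressing cells in 6 of 6 mice. Elane, 1 of the 12 neutrophil markers, was at 0 in those cells. These are sums of mean RPKM. On the log2 scale 5 neutrophil markers were tested, of which 4 were lower and 1, Lyz2, was higher (0.45). Of these 0 had an unadjusted p under 0.05, and their median was -0.18, and -0.10 with the covariate. Summed macrophage and monocyte markers ran from 0.0650 to 104.7 RPKM against 27.5 to 152.6 RPKM and were also lower in 6 of 6 mice, with Csf1r at 0. Endothelial markers, which matter because endothelial cells make von Willebrand factor, ran from 33.3 to 61.0 RPKM against 18.6 to 59.3 RPKM and were higher in 4 of 6 mice. Flt4, Stab2 and Lyve1, 3 of the 12 endothelial markers, were at 0 in all Vwf-expressing cells.

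The remaining sums were higher in Vwf-expressing cells in 3 mice or fewer. Mature erythroid markers ran from 0.0706 to 34.4 RPKM against 0.300 to 799.8 RPKM (higher in 1 of 6 mice, with Hba-a2 and Hbb-b2 at 0), and B cell markers from 10.8 to 73.5 RPKM against 24.9 to 527.1 RPKM (1 of 6, with 4 of 9 at 0). T and NK cell markers ran from 0.110 to 201.1 RPKM against 26.95 to 226.5 RPKM (2 of 6, with 8 of 11 at 0), and mast cell and basophil markers from 0 to 38.6 RPKM against 0.0261 to 16.4 RPKM (3 of 6, with 5 of 7 at 0). Of these mature-cell markers other than platelet markers 12 were tested, and 1 of them had an unadjusted p under 0.05, the lysosomal macrophage marker Cd68 (difference -0.60, limma adjusted p = 0.290, -0.54 with the covariate). The part that such cells play in the results was not tested.

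On the scale of mean log2 values and without the covariate, fewer genes were lower than higher. With the covariate the counts were close (157 lower and 133 higher in every mouse). On the log2 of class means, which depends on the number of cells, more genes were lower (379 against 194 at an unadjusted p under 0.05). Tox had -2.51 on that scale. Tox, an HMG-box nuclear protein known from T cell development, averaged 17.7 against 17.99 RPKM in PEM mouse 1, 0.0157 against 12.97 RPKM in PEM mouse 2, 0.0184 against 19.9 in PLT mouse 1, 2.01 against 7.72 in PLT mouse 2, 0 against 18.7 in MUL mouse 1, and 18.5 against 38.9 in MUL mouse 2. The Vwf-expressing class was lower in all 6 mice. Tox was at 1 RPKM or more in 4 of 51 against 5 of 42 cells, 0 of 10 against 2 of 15, 0 of 24 against 4 of 69, 1 of 37 against 4 of 47, 0 of 9 against 10 of 69, and 1 of 13 against 16 of 72, in the same order of mice. The log2 difference was -0.62 ± 0.16 (SE, 6 mice; limma adjusted p = 0.229), and it was -0.85 with the covariate, again lower in 6 of 6.

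Gm2a, the GM2 ganglioside activator of lysosomes, averaged 89.0 against 150.0 RPKM in PEM mouse 1, 65.3 against 144.3 RPKM in PEM mouse 2, 145.3 against 182.4 in PLT mouse 1, 103.0 against 108.8 in PLT mouse 2, 134.6 against 258.5 in MUL mouse 1, and 113.8 against 145.1 in MUL mouse 2. It was lower in 6 of 6 mice, by -1.23 ± 0.36 on the log2 scale (SE; limma adjusted p = 0.243), and by -1.17 with the covariate. Pcf11, a subunit of the machinery that cleaves pre-mRNA 3′ ends, was lower in 6 of 6 mice, with -0.67 and -0.82. Trf, the iron carrier transferrin, differed by -0.71 and -1.09, and Gstm7, a glutathione S-transferase, by -0.72 and -0.87, each lower in 5 of 6 mice before the covariate. Gbx2, a homeobox factor, Tep1, a telomerase-associated protein, and Zfp608, a zinc finger protein, differed by -0.29, -0.40 and -0.36 and were lower in every mouse. With the covariate they differed by -0.41, -0.51 and -0.57. A pair of predicted genes completed the 10 lower genes with the smallest p and are not described.

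With the covariate, the lower genes with the smallest p were Tox, Agk, Stradb and Ube2l6 beside 1 predicted gene. Agk, the mitochondrial acylglycerol kinase, differed by -0.41 as measured and by -1.16 with the covariate, Stradb, a pseudokinase partner of LKB1, by -0.38 and -0.70, and Ube2l6, the conjugating enzyme for the interferon-induced modifier ISG15, by -0.55 and -1.22. All 3 were lower in 6 of 6 mice in both fits, with adjusted p of 0.452, 0.272 and 0.359 without the covariate and 0.920 with it (limma).

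The difference between the classes was also compared between types of recipient, as the mean of the PEM and PLT mice minus that of the MUL mice. No gene passed an adjusted p under 0.05 (0% called; limma, Benjamini-Hochberg), and 419 of 8969 (4.67%) had an unadjusted p under 0.05. Among the named genes Clu gave 1.52 (adjusted p = 0.960), with higher levels in Vwf-expressing cells of all 4 PEM and PLT mice. Tbc1d2b gave -0.95 (adjusted p = 0.960), and Ly6a gave -1.83 (adjusted p = 0.960). With 2 mice a type, both MUL mice from 1 experiment, recipient type and experiment cannot be told apart in this contrast.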

How the data were processed

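Single-cell RNA-seq values were deposited as RPKM per gene symbol and cell, made by the authors, for 22645 genes in all cells. A second table gives each cell's count of mapped reads, count of detected genes and percent of mitochondrial reads, per the file headers. Cells had 1.30 M to 17.3 M mapped reads (median 4.90), and 45 cells listed Gapdh at 0 while none listed Actb at 0, so a 0 is described as listed at 0. TopHat, featureCounts and mm10 are named in the submitters' processing notes, and versions and settings are not given in the sources used here. RPKM is no count, whole reads were not recoverable from it, and no count model was used. All columns were mapped to a sample, by title, and 0 were left unused. No cell was filtered out, and doublets were not called, since cells were sorted singly into plates.

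Mice were the replicates and cells were not. For each mouse and class, log2(RPKM + 1) was averaged over cells. For each gene, the share of cells at 1 RPKM or more was averaged over the 6 mice, both classes together. The 8969 genes with a mean share of at least 5% were tested with limma 3.58.1 (R 4.3.3, intensity-trended eBayes) on the class. Mouse was the block, which makes it a paired comparison of the 6 mice. Vwf was left out. Benjamini-Hochberg adjustment ran over all tested genes with a threshold of 0.05. The pairing comes from both classes being cells of the same animal. Cell measures were tested by exact sign-flip permutation (Python 3.11.15, scipy 1.17.1). Since class and gene levels come from the same libraries, the depth and detection of a cell enter both.

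Genes were named as follows: Vwf, 30 fixed genes, up to 10 genes in each direction past the threshold or, failing that, with the smallest p, the 5 in each direction with the smallest p when detected genes were a covariate, and members of lists picked after their values were seen. A few genes that these rules name are not reported here. The 26 gene lists, the split and the members were chosen with earlier results of these data known. Gene positions came from GENCODE M21, where 22293 of the symbols were matched, and promoters from RefSeq (GRCm38.p6). Alternatives covered the Vwf threshold, covariates, scale, pseudocount, filters, cells with other cells' markers, the block, and each mouse left out in turn.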

Additional observations from a re-analysis of the deposited data

Results flagged for a closer look

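Among 79 sets of 6 within-mouse values that were screened (the class differences of the named genes and of the cell measures), 5 had 1 mouse far from the other 5, and chance alone marks about 1 set in 20. Cct3, the chaperonin subunit, differed by 3.51 on the log2 scale in PEM mouse 2, where the next mouse had 2.38. Mcm7, the helicase subunit, differed by 3.58 in the same mouse, where the next had 1.72. Usp18, the interferon-induced protease, differed by 2.22 in MUL mouse 1, where the next had 0.85. Tbxas1, thromboxane A synthase, differed by only 0.48 in MUL mouse 2, where the next had 1.48. Mmrn1, multimerin 1, differed by -1.07 in PLT mouse 1, where the nearest other mouse had -0.0025, and it was read almost only in the PLT mice. PEM mouse 2, which holds 2 of the 5, was also the mouse with the fewest cells (25), 7 of whose 10 Vwf-expressing cells carried platelet markers.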

How the results depend on the processing

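No gene was called in any of the 23 other settings, for the class difference or for its contrast between recipient types (not fitted without the block). Of 1714 values of 76 named genes under other settings, 1675 kept their direction, and 58 genes never changed sign. Many of these genes were named for a small p, and the settings reuse the same mice. A kept direction is thus partly set in advance and is no further support. The share over all tested genes was not counted. The lowest adjusted p of a named gene in any setting was 0.137.

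The count of genes higher at an unadjusted p under 0.05 (1401) was 234 with detected genes and 823 with mitochondrial percent as a covariate, 336 in cells with 1800 to 3000 detected genes, 194 on the log2 of class means, 904 with a filter at 20% of cells, and 548 without cells with platelet markers. The count of lower genes (63) was 211 with the detected-gene covariate, 142 in the restricted range and 379 on the class means. It was 22 with the stricter filter, 35 with a pseudocount of 0.1, 97 with 10, and 253 with no filter. Higher and lower counts alike are of 8969 tested genes, except 4118 with the stricter filter and 15755 with no filter. Counts under those filters are therefore on another base and do not show a change in share. Leaving out 1 mouse at a time gave 981 (without MUL mouse 1) to 1743 (without MUL mouse 2) higher and 37 (without MUL mouse 2) to 64 (without PLT mouse 2) lower genes, with 40 lower without PEM mouse 2. Without the replicate block, that is without pairing the classes by mouse, 742 were higher and 20 lower, and the lowest adjusted p was 0.570. By class means in place of medians, detected genes differed by 534 and mapped reads by -0.927 M reads, both with an adjusted exact permutation p of 0.0469.

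Signs reversed as follows. With Vwf above 0 against 0 the differences were 0.23 for Stradb, 1.01 for Hlf, -0.32 for Mecom, 0.091 for Mmrn1, -0.0091 for Cdkn1c, 0.030 for Plscr2 and -0.16 for Bst2, and with Vwf at 10 RPKM or more Mecom had -0.068. In the restricted range of detected genes, without PEM mouse 2, they were 0.34 for Hlf, -0.21 for Gp1ba, -0.21 for Gp9, -0.27 for Pf4, -0.19 for Gata1, 0.21 for Plscr2, -0.20 for Stxbp3a, -0.031 for Bst2 and 0.23 for Rtp4. On the log2 of class means they were -0.69 for Slamf1, -0.21 for Itgb3, -0.37 for Gp9, -0.083 for Cdkn1c, -0.17 for Aldh1a1, -0.13 for Srgn and -0.16 for Stxbp3a. Without cells with platelet markers they were 0.40 for Hlf, -0.085 for Itgb3, -0.078 for Gp1ba, -0.33 for Gp9, -0.16 for Pf4 and -0.093 for Gata1. The detected-gene covariate gave -0.14 for Mecom, -0.084 for Itgb3 and -0.0011 for Esam, leaving out cells with mature blood cell markers gave -0.030 for Itgb3, and a pseudocount of 0.1 gave -0.0081 for Mecom. Leaving out a mouse gave 0.089 for Hlf (PEM mouse 2; the lowest of its 6 such values was -0.59, without PLT mouse 2), -0.020 and -0.086 for Mecom (MUL mouse 2 and PLT mouse 1) and 0.046 for Mmrn1 (PLT mouse 1). The cause of these changes was not tested.

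With 6 mice and classes as small as 9 cells, the median SE of a gene was 0.26 on the log2 scale, and reads per gene are unknown from RPKM.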
